A study of Mus musculus with 14 samples.

Results

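C-type lectin receptors are cell surface proteins of macrophages and dendritic cells that bind sugars and lipids on microbes and on the body's own glycoproteins. Mouse Mrc1, Cd209a, Clec10a, Mgl2, Clec7a, Clec4n, Clec4d, Clec4e, Clec4a1 and Clec4a3, 10 genes of this family, are described here across 4 treatments of peritoneal macrophages. They were named as a functional group and matched to the array through the RefSeq accessions that its design gives for the probes. Of 20660 genes with a named probe on the array, 10 probes belonged to 9 of these 10 genes (Cd209a had 2). Clec7a, the beta-glucan receptor Dectin-1, is not analysed here, since no probe accession was paired with it.

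The study set macrophages of tissue origin beside macrophages that arise from recruited monocytes, each with and without interleukin 4. C57BL/6 mice were injected into the peritoneal cavity, and cells carrying both CD11b and F4/80 were sorted and profiled on 1-colour Agilent arrays. The PBS group (n = 3) received the vehicle alone and the IL-4c group (n = 4) received 5 µg of interleukin 4 with 25 µg of its antibody 11B11, a complex that prolongs the action of the cytokine. The Thio group (n = 3) received 2 ml of 4% thioglycollate medium, an irritant that draws monocytes into the cavity, and the Thio+IL-4c group (n = 4) received both. The labels call the PBS cells resident and the Thio cells monocytes, and here the cells of both groups without thioglycollate are called resident and those of both groups with it elicited. Age, sex and the time between injection and harvest are not given in the sources used here. The labels do not say whether replicates are separate animals, so the spread that the p-values rest on may be technical.

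Mrc1 encodes the mannose receptor, which takes up mannosylated glycoproteins and is a classical marker of macrophages activated by interleukin 4. Clec10a and Mgl2 encode the paired mouse galactose-type lectins CD301a and CD301b, and Cd209a encodes a mouse relative of the human receptor DC-SIGN. Clec4n (Dectin-2), Clec4d (MCL) and Clec4e (Mincle) sense fungal and mycobacterial glycans or glycolipids and signal through the adaptor Fcer1g and the kinase Syk, whereas Clec4a1 and Clec4a3 belong to the DCIR group of the family. In bulk RNA from sorted cells, fewer cells of a type and less RNA per cell cannot be told apart.

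A level below is the log2 signal of a probe minus the 75th percentile of its array, so that 0 is that percentile. No probe's level is set against another probe's, except in the marker sums. All 10 probes were well above background on all 14 arrays. The 75th percentile of the processed signal lay between 1271 and 3866 on the 14 arrays, and between 79.4% and 95.8% of spots were well above background. The first Thio array stood apart: across genes it correlated with the other Thio arrays at r of 0.849 and 0.866 but with the PBS arrays at 0.918 to 0.931, while all other pairs within groups lay between 0.957 and 0.988. It also shared slide 1 with all PBS and IL-4c arrays, whereas Thio 2, Thio 3 and the 4 Thio+IL-4c arrays were on slide 2. Comparisons across slides are therefore also given with slide as a block or without Thio 1. Only Thio 1 links the slides, so with slide as a block it alone stands for the Thio group against PBS. For IL-4c in elicited cells and for the interaction, the block and leaving out Thio 1 give the same differences. Both comparisons with PBS use the same PBS arrays, and both comparisons with Thio+IL-4c use the same Thio+IL-4c arrays. Gata6, which encodes the transcription factor of resident peritoneal macrophages, lay between 2.93 and 3.31 on the resident arrays and between -3.50 and -1.64 on the elicited ones. Itgam and Adgre1, which encode the sorted proteins CD11b and F4/80, were well above background on all 14 arrays, but were lower in elicited cells. Itgam lay between 5.73 and 6.11 on the resident arrays and between 4.05 and 4.33 on the elicited ones. Adgre1 lay between 6.22 and 6.61 on the resident arrays and between 3.45 and 4.77 on the elicited ones.

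The promoters of 5 of the genes are shown because the results turn on the different ways in which these genes responded to the same treatments. Windows from 250 bases before to 50 bases after the start site were matched by symbol for 8 of the 10 genes in RefSeq (GRCm38.p6), all but Clec10a and Clec4n. The window of Mrc1 is chr2:14229164-14229463, that of Mgl2 is chr11:70130107-70130406, and those of Clec4a1, Clec4a3 and Clec4d are chr6:122921598-122921897, chr6:122952265-122952564 and chr6:123261857-123262156, all on the plus strand. Capitals mark the letters of 5 motifs searched on both strands, namely a STAT6-type motif (TTC and GAA with 4 bases between them), a STAT-type motif (the same with 3 bases between), GAGGAAG (PU.1-type, which reads CTTCCTC on the other strand), TGANTCA (AP-1-type) and CACGTG (E-box).
Mrc1: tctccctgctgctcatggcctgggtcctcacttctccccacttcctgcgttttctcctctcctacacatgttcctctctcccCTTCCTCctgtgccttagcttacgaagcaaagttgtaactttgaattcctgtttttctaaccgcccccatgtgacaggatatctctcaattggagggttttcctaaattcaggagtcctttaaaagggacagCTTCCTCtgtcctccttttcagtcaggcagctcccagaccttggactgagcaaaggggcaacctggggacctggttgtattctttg
Mgl2: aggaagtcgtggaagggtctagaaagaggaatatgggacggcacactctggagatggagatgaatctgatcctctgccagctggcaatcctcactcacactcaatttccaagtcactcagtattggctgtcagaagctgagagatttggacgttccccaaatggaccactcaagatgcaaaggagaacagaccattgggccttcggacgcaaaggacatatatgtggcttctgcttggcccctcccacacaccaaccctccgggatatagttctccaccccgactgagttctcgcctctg
Clec4a1: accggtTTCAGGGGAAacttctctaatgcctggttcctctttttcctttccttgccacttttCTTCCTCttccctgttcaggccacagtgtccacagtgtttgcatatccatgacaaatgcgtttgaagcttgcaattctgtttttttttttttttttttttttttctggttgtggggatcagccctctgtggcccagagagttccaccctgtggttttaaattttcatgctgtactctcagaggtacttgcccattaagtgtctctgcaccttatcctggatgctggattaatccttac
Clec4a3: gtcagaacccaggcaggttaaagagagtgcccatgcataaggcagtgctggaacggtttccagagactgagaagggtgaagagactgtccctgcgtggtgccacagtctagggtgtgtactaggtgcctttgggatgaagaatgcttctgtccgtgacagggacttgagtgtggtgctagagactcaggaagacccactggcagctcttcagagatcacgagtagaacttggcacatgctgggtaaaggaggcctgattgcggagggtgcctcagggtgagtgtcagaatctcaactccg
Clec4d: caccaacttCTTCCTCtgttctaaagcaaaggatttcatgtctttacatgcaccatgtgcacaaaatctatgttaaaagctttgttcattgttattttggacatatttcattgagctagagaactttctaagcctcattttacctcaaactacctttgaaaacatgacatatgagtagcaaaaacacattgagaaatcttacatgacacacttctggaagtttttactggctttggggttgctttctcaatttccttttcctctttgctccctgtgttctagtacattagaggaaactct
The Mrc1 window held the PU.1-type letters at 168 and at 36 bases before the start, and that of Clec4d held them at 241 bases before it. The Clec4a1 window held a STAT6-type match at 244 bases and a PU.1-type match at 188 bases before its start. The window of the first start of Clec7a held a STAT6-type match at 131 bases before it. None of the 5 motifs was found in the windows of Mgl2, Clec4a3 (either of its starts), Clec4e or Cd209a. Among 32851 such windows, 13.6% held the PU.1-type letters, 7.0% the STAT6-type, 8.3% the STAT-type, 7.8% the AP-1-type and 7.2% the E-box letters, so a match is a description of these letters and not a binding site.

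Mrc1 was higher in elicited than in resident cells, and the sign of its response to IL-4c differed between them. Its level was 1.55, 1.90 and 1.64 on the PBS arrays, 0.50, 0.42, 0.94 and 1.08 on the IL-4c arrays, 4.52, 4.30 and 4.22 on the Thio arrays, and 5.88, 5.95, 5.90 and 5.81 on the Thio+IL-4c arrays. The 4 groups did not overlap: every IL-4c array lay below every PBS array, and every Thio+IL-4c array lay above every Thio array. In resident cells the mannose receptor transcript fell with IL-4c by 0.96 on the log2 scale (SE 0.16, limma adjusted p = 0.00067), a 1.95-fold lower signal. In elicited cells it rose with IL-4c by 1.54 (SE 0.16, limma adjusted p = 1.5e-05), a 2.91-fold higher signal.

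The difference between these responses was 2.50 (SE 0.23, limma adjusted p = 1.2e-05 for the interaction). Without Thio 1 it was 2.59, and each left-out array gave a value between 2.40 and 2.61. Thioglycollate alone went with a 6.28-fold higher Mrc1 signal (log2 difference 2.65, limma adjusted p = 3.2e-07), and Thio 1 alone against the PBS arrays of its own slide gave 2.82. Where both groups had received IL-4c, the signal was 35.5-fold higher in elicited cells (log2 difference 5.15, 95% interval 4.82 to 5.48).

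Cd209a, the DC-SIGN relative, fell with thioglycollate and rose with IL-4c in elicited cells. Its brighter probe stood at 0.69, 1.61 and 1.38 with PBS, at 2.44, 2.56, 2.11 and 2.46 with IL-4c, at -2.37, -2.64 and -2.72 with thioglycollate, and at 0.06, 0.81, 0.52 and -1.22 with both. The 3 Thio arrays lay below all others, and the Thio+IL-4c arrays reached the lowest PBS value but not the IL-4c values. Thio+IL-4c 4, at -1.22, lay apart from the other 3 of its group. The fall with thioglycollate was 14-fold (log2 difference -3.80, SE 0.43, limma adjusted p = 2.7e-05), and Thio 1 against the PBS arrays of its slide gave -3.60.

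The rise of Cd209a with IL-4c in elicited cells was 6.14-fold (log2 difference 2.62, SE 0.40, limma adjusted p = 0.00025) and was 2.72 without Thio 1. In resident cells the difference was 1.17 (SE 0.40, limma adjusted p = 0.043), and all 4 IL-4c arrays lay above all 3 PBS arrays. That call did not last: it was lost when any 1 PBS or IL-4c array was left out, with values from 0.90 to 1.36, and also without Thio 2, Thio 3 or Thio+IL-4c 1, with quantile normalization (1.08) and with the mean of both probes (0.93). The second probe of the gene read -1.26, -0.92 and -1.14 with PBS and -0.52, -0.04, -0.92 and -0.23 with IL-4c, a difference of 0.68 that did not pass the test. On the Thio arrays this probe read -5.17, -3.41 and -4.08, and on the Thio+IL-4c arrays -1.44, -0.96, -1.40 and -2.45, so both probes gave the same order of Thio and Thio+IL-4c. After IL-4c, the brighter probe was lower in elicited than in resident cells by a log2 difference of -2.35 (limma adjusted p = 0.00020), and at -2.04 it missed the threshold with slide as a block. Without a block, the second probe gave -1.14 for the same comparison.

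**Figure D1:**
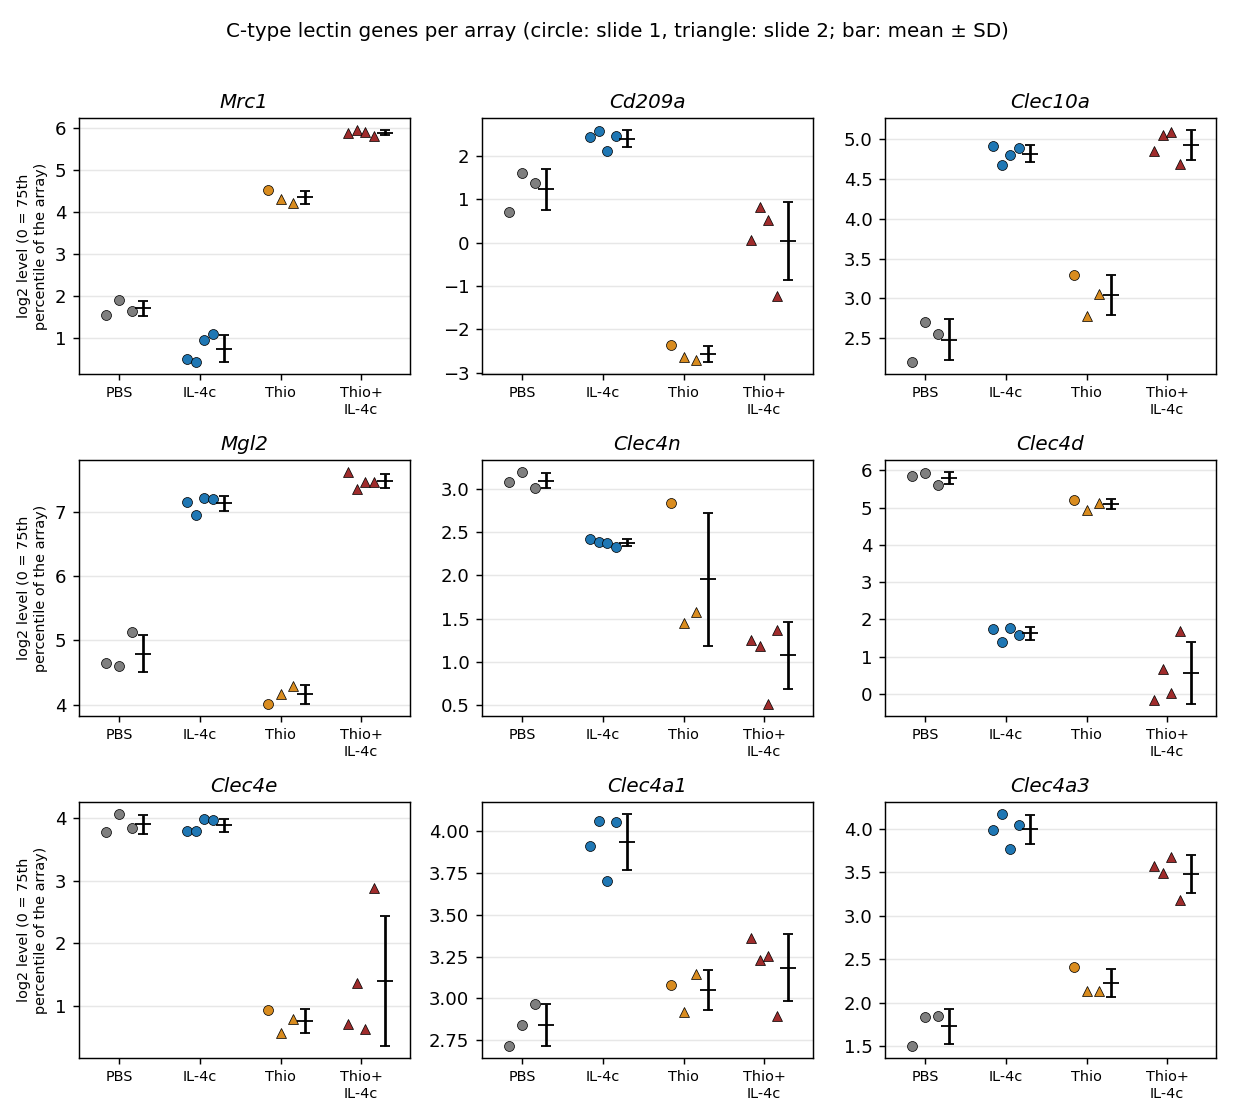
Level of each of the 9 genes on every array (log2 signal relative to the 75th percentile of the array, vertical axis, with a scale of its own in each panel) in the 4 groups, with circles for slide 1, triangles for slide 2 and bars for the mean and SD of each group. Mrc1 lies between 4.22 and 5.95 on all elicited arrays and below 1.91 on all resident ones, Mgl2 and Clec10a are high in both groups given IL-4c, and Clec4d is low in both.

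Both galactose-type lectin genes rose with IL-4c in resident and in elicited cells. Clec10a (CD301a) stood at 2.19, 2.70 and 2.54 with PBS, at 4.91, 4.67, 4.80 and 4.89 with IL-4c, at 3.29, 2.78 and 3.06 with thioglycollate, and at 4.86, 5.06, 5.10 and 4.69 with both. The groups given IL-4c lay above the groups without it and overlapped with each other. The rise was 5.06-fold in resident cells (log2 difference 2.34, SE 0.16, limma adjusted p = 5.6e-07) and 3.69-fold in elicited cells (1.88, SE 0.16, limma adjusted p = 2.4e-06). These responses differed by -0.46 (95% interval -0.95 to 0.04, limma adjusted p = 0.15), short of the threshold, but by -0.88 in the authors' deposited table, which passed it (limma adjusted p = 0.0092). Between the groups given IL-4c the elicited cells differed from the resident ones by 0.11 (95% interval -0.22 to 0.43), also short of the threshold, against 0.30 with quantile normalization, which passed it, and -0.22 in the authors' deposited table.

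Mgl2 (CD301b), the neighbouring gene on chromosome 11, stood at 4.65, 4.61 and 5.13 with PBS, at 7.15, 6.95, 7.22 and 7.20 with IL-4c, at 4.01, 4.17 and 4.30 with thioglycollate, and at 7.62, 7.36, 7.47 and 7.47 with both. The 4 groups did not overlap, and Thio was the lowest of them. The rise with IL-4c was 5.04-fold in resident cells (log2 difference 2.33, SE 0.14, limma adjusted p = 2.2e-07) and 9.99-fold in elicited cells (3.32, SE 0.14, limma adjusted p = 1.3e-08). The response was larger in elicited cells by 0.99 (SE 0.20, limma adjusted p = 0.0023), by 0.91 without Thio 1, and by 0.50 in the authors' deposited table (limma adjusted p = 0.031). Most of that difference lay in the starting levels: Thio was 0.64 lower than PBS (limma adjusted p = 0.0052), while Thio+IL-4c was 0.35 higher than IL-4c (limma adjusted p = 0.029), a call that was lost with slide as a block (0.12), with quantile normalization (0.27), in the authors' deposited table (-0.0027) and without any 1 of 5 arrays (0.29 to 0.36). Probe sequences are not used here, and a signal shared between the closely related Clec10a and Mgl2 transcripts was not tested.

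The thioglycollate comparison also separated this pair. Clec10a was 0.56 higher with thioglycollate alone (SE 0.17, limma adjusted p = 0.020), while Mgl2 was lower. The Clec10a difference rested on few arrays: it was 0.42 without PBS 1 and 0.56 without Thio 3, and both values missed the threshold. Thio 1 against PBS within slide 1 gave 0.81 for Clec10a and -0.79 for Mgl2, both past the threshold with the spread of that slide's arrays taken for the single Thio array.

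Clec4n, Clec4d and Clec4e lie next to each other on chromosome 6 and encode receptors of one signalling type, but their transcripts followed different treatments. Clec4d (MCL) stood at 5.84, 5.93 and 5.61 with PBS, at 1.75, 1.39, 1.77 and 1.59 with IL-4c, at 5.22, 4.94 and 5.12 with thioglycollate, and at -0.16, 0.67, 0.03 and 1.70 with both. All 8 arrays of mice given IL-4c lay far below the 6 arrays of mice without it. With IL-4c, Clec4d fell 18.0-fold in resident cells (log2 difference -4.17, SE 0.35, limma adjusted p = 2.7e-06) and 23.2-fold in elicited cells (-4.53, SE 0.35, limma adjusted p = 1.1e-06). The responses differed by -0.37 (95% interval -1.44 to 0.71), which did not pass the test, nor did -0.75 with quantile normalization or -0.79 in the authors' deposited table. Without Thio+IL-4c 4, the highest array of its group, the difference in elicited cells was -4.91.

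Clec4d was 0.70 lower with thioglycollate than with PBS, and the 3 Thio arrays lay below the 3 PBS arrays, but the limma adjusted p was 0.14. With quantile normalization it was -0.22 (limma adjusted p = 0.66). It passed the threshold at the same difference when Thio+IL-4c 4 was left out of the fit, whose wide group entered the shared spread (SD 0.84 with it), in a fit of the PBS and Thio arrays alone, and with array weights (-0.73). Between the groups given IL-4c, Clec4d was 1.06 lower in elicited cells (limma adjusted p = 0.011), with arrays that overlapped and a call that was lost with slide as a block (-0.88).

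Clec4e (Mincle) was lower in elicited than in resident cells, and no difference with IL-4c passed the test. Its level was 3.79, 4.07 and 3.85 with PBS, 3.79, 3.79, 3.99 and 3.97 with IL-4c, 0.94, 0.56 and 0.78 with thioglycollate, and 0.71, 1.36, 0.64 and 2.88 with both. The PBS and IL-4c arrays overlapped, as did the Thio and Thio+IL-4c arrays, and all 7 elicited arrays lay below all 7 resident ones. Thioglycollate alone went with an 8.83-fold lower signal (log2 difference -3.14, SE 0.45, limma adjusted p = 0.00018), and Thio 1 within slide 1 gave -2.96.

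In elicited against resident cells after IL-4c, Clec4e was 5.62-fold lower (log2 difference -2.49, limma adjusted p = 0.00019), -2.98 without Thio+IL-4c 4, and -2.22 with slide as a block, where it missed the threshold. For IL-4c itself the differences were -0.02 in resident cells (95% interval -0.94 to 0.91) and 0.64 in elicited cells (95% interval -0.29 to 1.56). Without Thio+IL-4c 4 the elicited difference was 0.14 (95% interval -0.28 to 0.56). These intervals leave room for a change in either direction.

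Clec4n (Dectin-2) followed the slides as much as the treatments. It stood at 3.08, 3.20 and 3.02 with PBS, at 2.43, 2.38, 2.38 and 2.33 with IL-4c, at 2.84, 1.45 and 1.57 with thioglycollate, and at 1.25, 1.18, 0.51 and 1.37 with both. All 8 arrays of slide 1, Thio 1 included, lay at or above 2.33, and all 6 arrays of slide 2 at or below 1.57. With thioglycollate the difference was -1.14 (SE 0.32, limma adjusted p = 0.014), but it was -0.26 for Thio 1 against PBS on slide 1, past no threshold, and -1.59 for Thio 2 and Thio 3 without Thio 1. It also missed the threshold without Thio 2 (-0.89) or Thio 3 (-0.95).

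In elicited cells the Clec4n difference with IL-4c was -0.88 (limma adjusted p = 0.035), and -0.44 without Thio 1, where the call was lost, as it also was without Thio+IL-4c 2 (-0.91) or Thio+IL-4c 3 (-0.69). In resident cells, all on slide 1, IL-4c went with -0.72 (SE 0.30, limma adjusted p = 0.093). There the arrays of the groups did not overlap, and the SDs were 0.09 with PBS and 0.04 with IL-4c, against 0.77 in the Thio group, which the shared spread includes. Without Thio 1 the same difference passed the threshold, as did -0.86 with quantile normalization, while the authors' deposited table gave -0.39 (limma adjusted p = 0.34). After IL-4c, elicited and resident cells differed by -1.30 (limma adjusted p = 0.0014), and 0.03 with slide as a block.

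Clec4a1 and Clec4a3, neighbouring genes of the DCIR group on chromosome 6, rose with IL-4c in resident cells. Clec4a1 stood at 2.71, 2.84 and 2.96 with PBS, at 3.91, 4.06, 3.71 and 4.06 with IL-4c, at 3.08, 2.92 and 3.15 with thioglycollate, and at 3.36, 3.23, 3.26 and 2.89 with both. The 4 IL-4c arrays lay above all others, and the other 3 groups overlapped with their neighbours in level. The rise in resident cells was 2.14-fold (log2 difference 1.10, SE 0.14, limma adjusted p = 5.8e-05). In elicited cells the difference was 0.14 (95% interval -0.16 to 0.43, limma adjusted p = 0.43), and the interaction was -0.96 (SE 0.19, limma adjusted p = 0.0023).

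Clec4a3 stood at 1.50, 1.84 and 1.85 with PBS, at 3.99, 4.17, 3.77 and 4.04 with IL-4c, at 2.41, 2.14 and 2.13 with thioglycollate, and at 3.57, 3.49, 3.67 and 3.18 with both. The groups did not overlap and ordered as PBS, Thio, Thio+IL-4c and IL-4c. The rise with IL-4c was 4.80-fold in resident cells (log2 difference 2.26, SE 0.15, limma adjusted p = 4.7e-07) and 2.38-fold in elicited cells (1.25, SE 0.15, limma adjusted p = 3.8e-05). The interaction was -1.01 (SE 0.21, limma adjusted p = 0.0032). Without Thio 1 the interactions of Clec4a1 and Clec4a3 were -0.95 and -0.92, and both still passed the test.

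With thioglycollate alone Clec4a3 was 0.50 higher (limma adjusted p = 0.026), a call that was lost without PBS 1 (0.38), and Clec4a1 differed by 0.21 (95% interval -0.11 to 0.53). Where both groups had received IL-4c, Clec4a1 was 0.75 lower (limma adjusted p = 0.00029) and Clec4a3 0.51 lower (limma adjusted p = 0.0060) in elicited cells. With slide as a block these values were -0.70 and -0.24 and passed no threshold, and with quantile normalization Clec4a3 also missed it (-0.29). A signal shared between the 2 related transcripts was not tested.

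**Figure D2:**
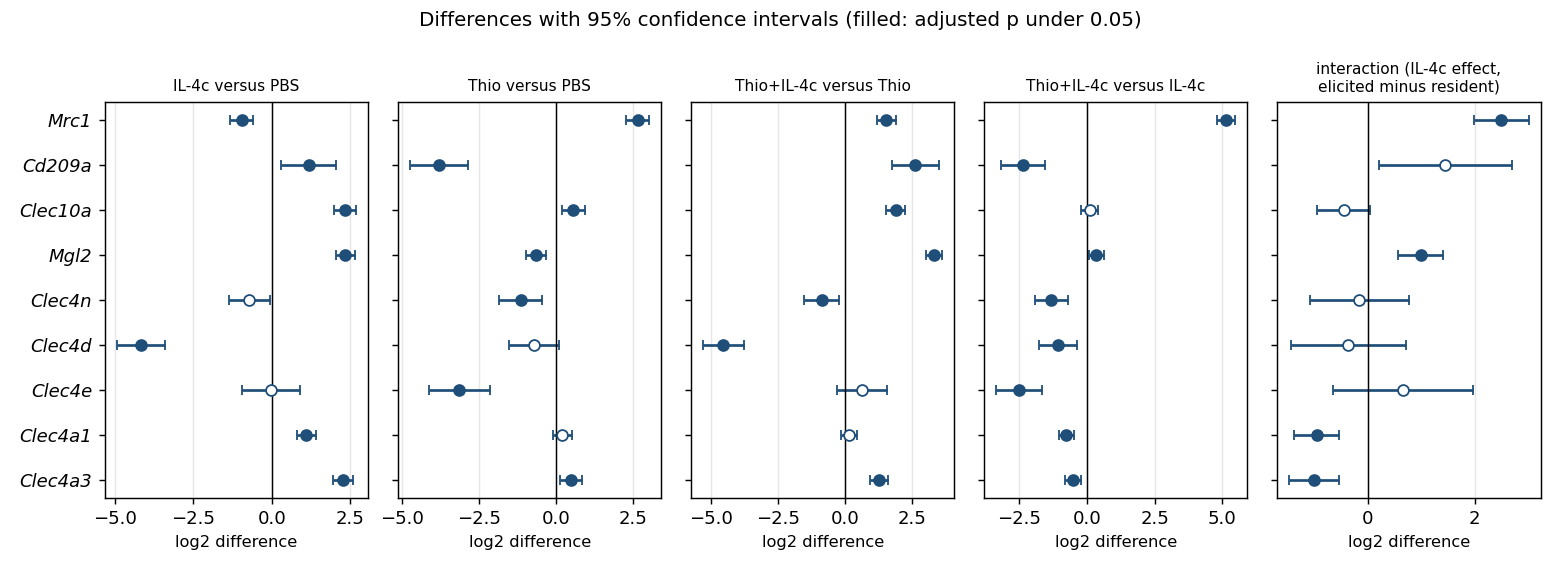
Log2 difference of each of the 9 genes (horizontal axis) in the 4 comparisons and the interaction, with 95% intervals and points filled where the limma adjusted p was under 0.05. Clec4d lies at -4.17 and -4.53 in the comparisons that test IL-4c, and Mrc1 lies at -0.96 in resident cells and at 1.54 in elicited cells.

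Counted over the family members, IL-4c in resident cells went with 5 that rose (Clec10a, Mgl2, Clec4a3, Cd209a and Clec4a1) and 2 that fell (Clec4d and Mrc1), while Clec4n and Clec4e were not called. The call, a limma adjusted p under 0.05, was made for 32.2% of all 20342 genes tested in that comparison, 16.8% as higher and 15.4% as lower. The arrays of the groups did not overlap for 8 of the 9 members, against 53.2% of genes. The median difference of the members was 1.10, beside -0.01 over all genes tested. Of the 5 rises, that of Cd209a was no longer called when any 1 PBS or IL-4c array was left out.

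Thioglycollate alone went with 3 members that rose (Mrc1, Clec10a and Clec4a3) and 4 that fell (Cd209a, Clec4e, Clec4n and Mgl2), where 44.4% of genes were called, 20.2% as higher and 24.3% as lower. Their arrays did not overlap for 8 of 9 members, beside 42.5% of genes, and the median difference was -0.64, beside -0.09. With slide as a block this comparison rests on Thio 1 alone against the PBS arrays, and the Clec4n difference was -0.26. In a fit of the PBS and Thio arrays alone, 4 members were called (Mrc1, Cd209a, Clec4e and Clec4d), where 19.2% of genes were.

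In elicited cells IL-4c went with 5 members that rose (Mgl2, Cd209a, Clec10a, Mrc1 and Clec4a3) and 2 that fell (Clec4d and Clec4n), where 39.3% of genes were called, 16.3% as higher and 23.0% as lower. Their arrays did not overlap for 7 of the 9, beside 44.5% of genes. The median difference was 1.25, beside 0.04 over all genes. Without Thio 1, 5 rose and 1 fell, where 42.0% of genes were called.

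Between the groups given IL-4c, 2 members were higher in elicited cells (Mrc1 and Mgl2) and 6 were lower, where 70.0% of all genes were called (27.9% higher, 42.1% lower). The share of members called was 88.9%, which with only 9 members is not read as a result about them. Arrays did not overlap for 7 of 9 members, beside 72.6% of genes. No slide held arrays of both groups, and only Thio 1 links the slides. With slide as a block, 1 member was called, Mrc1, at 5.41 (limma adjusted p = 7.7e-07), where 26.7% of genes were.

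**Figure D3:**
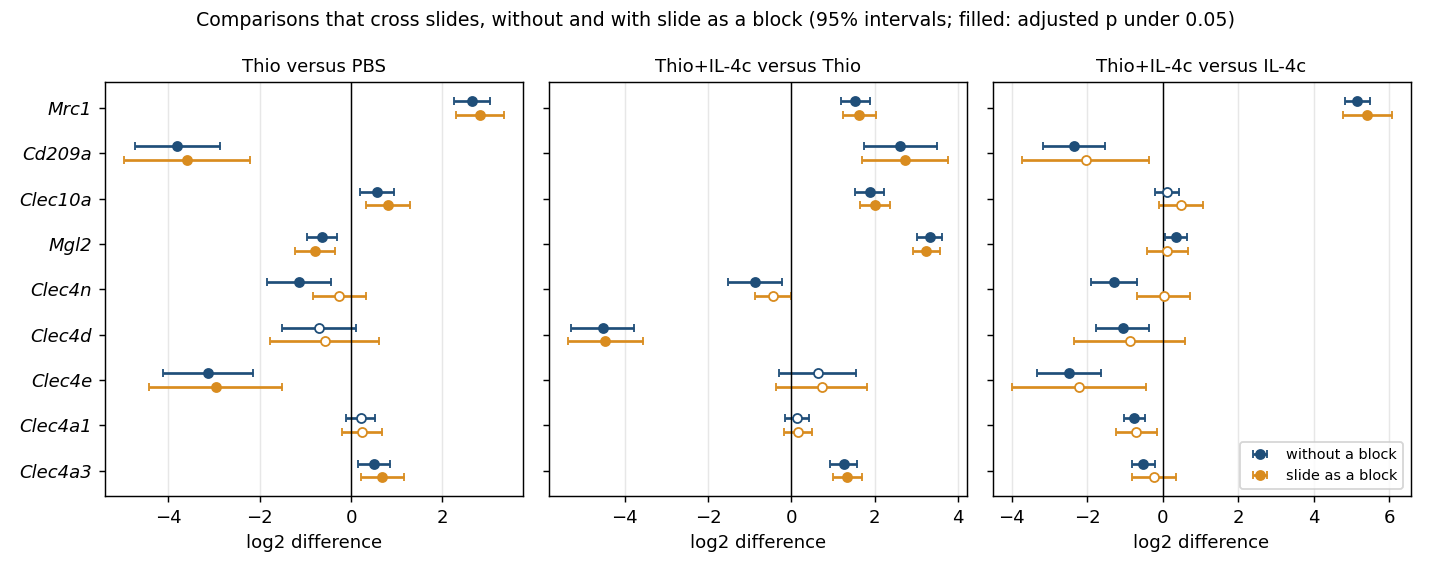
Log2 difference of each of the 9 genes (horizontal axis, 95% intervals) in the 3 comparisons that span both slides, without a block and with slide as a block, with points filled where the limma adjusted p was under 0.05. For Clec4n the blocked values move toward 0 (-0.26, -0.44 and 0.03), and for Mrc1 they stay at 2.82, 1.63 and 5.41.

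The test of whether the response to IL-4c differed between elicited and resident cells called 4 of the 9 members, 2 in each direction, where 32.5% of genes were called, 12.8% as positive and 19.8% as negative. Mrc1 and Mgl2 responded more positively in elicited cells, and Clec4a1 and Clec4a3 less. The same 4 were called with slide as a block or without Thio 1, where 40.1% of genes were called. These settings give the same differences here and are not separate checks. The authors' deposited table added Clec10a. For Cd209a the interaction was 1.45 (SE 0.57, limma adjusted p = 0.071), and its call depended on the setting. It passed the threshold without Thio+IL-4c 4 (1.87), with array weights (1.91), with the second probe (1.98) and with the mean of both probes (1.71), while the authors' deposited table gave 0.77 (limma adjusted p = 0.28). The 95% intervals of Clec4n (-1.08 to 0.77) and Clec4e (-0.65 to 1.96) were too wide to place their responses as alike or different.

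**Figure D4:**
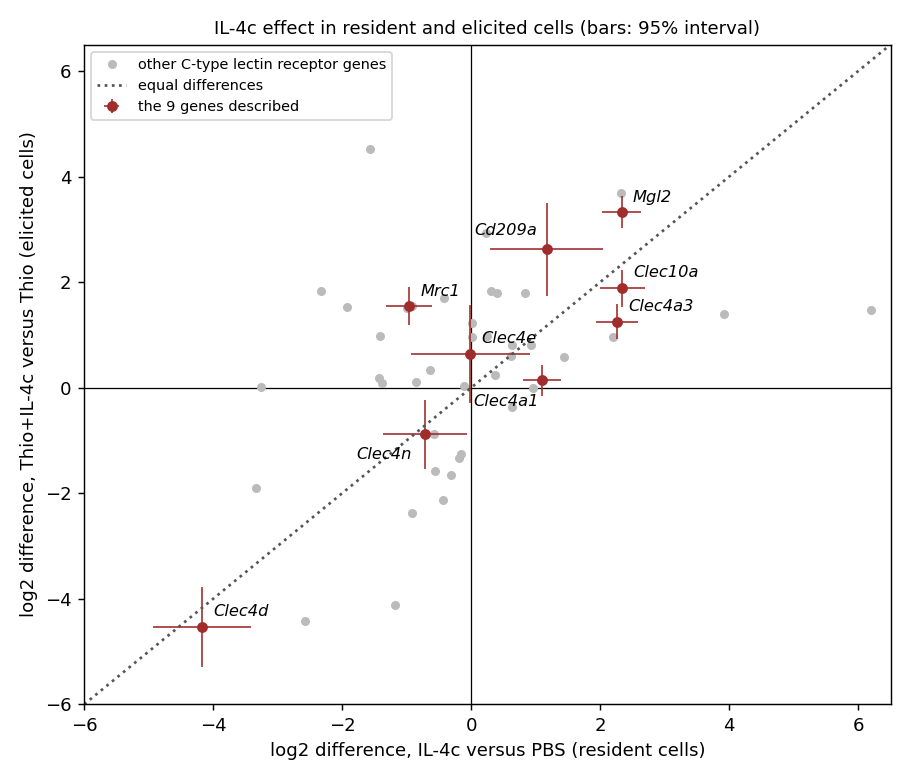
Response to IL-4c in resident cells (log2 difference from PBS, horizontal axis) against that in elicited cells (log2 difference from Thio, vertical axis), with 95% intervals for the 9 genes and grey points for 41 other C-type lectin receptor genes. On the dotted line the responses are equal; Mrc1 lies left of 0 and above it, Mgl2 lies above the line, and Clec4a1 and Clec4a3 lie below it.

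Beyond these genes, 41 other C-type lectin receptor genes on the array were tested. In resident cells 4 rose and 11 fell with IL-4c, a share near the 32.2% of all genes called there, and their median difference was -0.20, beside -0.01 over all genes. The rises included Clec4g, the liver sinusoid lectin LSECtin (3.93, SE 0.63, limma adjusted p = 0.00040), and Cd209e, another DC-SIGN relative (2.32, SE 0.65, limma adjusted p = 0.016). Clec2h, with no PBS array well above background, was at least 17.8-fold higher with IL-4c, a bound set against the dimmest PBS signals that still counted as well above background. The falls included Cd302 (-3.33, SE 0.17, limma adjusted p = 6.1e-08) and the scavenger receptor gene Colec12 (-2.58, SE 0.19, limma adjusted p = 9.9e-07). Clec1a, which exceeded background on 1 PBS array, was also called as lower, but the call was lost when any 1 of the 4 IL-4c arrays was left out.

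In elicited cells 12 of these 41 rose and 10 fell with IL-4c, where 39.3% of all genes were called, and the median difference was 0.60, beside 0.04. Olr1, which encodes LOX-1, a receptor for oxidised lipoprotein, rose by 4.51 (SE 0.50, limma adjusted p = 2.0e-05), and its level was -4.32 to -2.92 on the Thio arrays and -0.05 to 2.47 on the Thio+IL-4c arrays. Cd209e rose by 3.69 and Clec4b1, which lies in the Clec4 cluster, by 2.92. Colec12 fell by 4.42 and Cd93 by 4.11. The interaction was called for 17 of the 41, with 10 more positive in elicited cells and 7 less, where 32.5% of all genes were called.

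Thioglycollate alone went with 5 of the 41 that rose and 10 that fell, where 44.4% of all genes were called. Without Thio 1, 12 rose and 15 fell (68.2% of all genes), while a block on slide leaves Thio 1 alone against PBS. Cd209b, the mouse receptor SIGN-R1, stood between -0.17 and 0.32 on the PBS arrays and was not well above background on any Thio array, at least 65.8-fold lower by the same kind of bound. Klra2 fell by 3.76. Klra17, with no PBS array well above background, was at least 4.89-fold higher by the mean of the Thio arrays, which read -4.75, -2.33 and -2.48. For Thio 1 against PBS within slide 1, the Klra17 difference missed the threshold (limma adjusted p = 0.067). Clec2d rose by 1.54. Clec2h was well above background on 2 of 3 Thio arrays, and its difference was 0.19 with slide as a block.

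In elicited against resident cells after IL-4c, 13 of the 41 were higher and 12 lower, where 70.0% of all genes were called, and 6 and 8 with slide as a block, where 26.7% were. Olr1 was 4.70 higher, and Clec5a, a myeloid activating receptor gene that was not well above background on any IL-4c array, was at least 5.96-fold higher. Cd209b was at least 32.8-fold lower and Clec4g was lower by a log2 difference of -3.20. Klrb1b, which was dim after IL-4c alone (1 of 4 arrays well above background), was called as higher, but its difference turned to -0.21 with slide as a block.

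Among 32 genes of the signalling route of these receptors (adaptors, kinases, the Card9 complex and transcription factors), 4 rose and 12 fell with IL-4c in resident cells, where 32.2% of all genes were called, with a median difference of -0.17, beside -0.01 over all genes. The rises included Nfatc2 (3.32, SE 0.23, limma adjusted p = 6.2e-07) and the inflammasome adaptor gene Pycard (1.11), and the falls included Nfatc1 (-1.45) and Egr2 (-1.42). The call of Bcl10 (0.55) was lost when any 1 PBS or IL-4c array was left out. Fcer1g, the adaptor of Clec4d, Clec4e and Clec4n, was named after its values were seen: it stood at 6.27 ± 0.18 (SD, n = 3) with PBS and 5.24 ± 0.17 (SD, n = 4) with IL-4c, a log2 difference of -1.03 (limma adjusted p = 0.00017).

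In elicited cells 6 of these 32 rose and 14 fell with IL-4c, where 39.3% of all genes were called, with a median difference of -0.15, beside 0.04. Pycard rose by 1.36, Nfkb1 by 1.32 and Egr3 by 1.29, while Cblb fell by 1.01 and Syk by 0.89. The Cblb value was -0.35 and not called when the gene's probes were averaged. Fcer1g fell there as well, from 6.60 ± 0.26 (SD, n = 3) to 5.71 ± 0.12 (SD, n = 4), a log2 difference of -0.89 (limma adjusted p = 0.00042). With thioglycollate alone 10 rose and 12 fell, where 44.4% of all genes were called, among them Egr2 (3.21), Nfatc2 (2.86), Lyn (-1.33), Pycard (-1.26) and Card9 (-1.19). The median difference was 0.06, beside -0.09 over all genes. With slide as a block 10 rose and 5 fell (29.6% of all genes), and Card9 (-0.58) was not called. Src, at 1.87 with thioglycollate, was 0.16 with slide as a block.

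Where both groups had received IL-4c, 13 of the 32 were higher and 9 lower in elicited cells, where 70.0% of all genes were called, and the median difference was 0.25, beside -0.21. Egr2 was 4.96 higher, while Plcg2 was lower by a log2 difference of -1.29 and Card9 by -1.36. With slide as a block 8 were higher and 4 lower (26.7% of all genes), and Card9, Src and Rel were not called. The interaction was called for 14 of the 32, with 7 in each direction, where 32.5% of all genes were called, led by Egr2 (1.75) and Nfatc2 (-2.44).

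Across the 14 arrays, the levels of the members were compared as a description only, since the arrays share groups and slides. Over 36 pairs, r ran from -0.964 for Clec10a with Clec4d to 0.959 for Clec10a with Clec4a3, and was 0.930 for the neighbours Clec10a and Mgl2. The search for like genes left out clone and predicted names and genes without a value on every array. Among the other genes tested, the levels most like those of Mrc1 were those of Gpc1 (r = 0.994), Sdc4 (0.991) and Plbd1 (0.989). For Cd209a they were Psmb10 (0.980), Ppp1r21 and Sltm, for Clec10a Anp32e (0.992), Nubp1 and Lap3, and for Mgl2 Shmt2 (0.986), Mthfd2 and Erp44.

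For the Clec4 cluster, Clec4d was most like Mbp (0.987), Dram1 and Prom1, Clec4e most like Alox5 (0.975), Polb and Epha2, and Clec4n most like Mss51 (0.987), Gpatch8 and Npm2. Clec4a1 was most like Naaa (0.976), Antxr1 and Rbl1, and Clec4a3 most like Asap2 (0.986), Aars and Srsf10. Each r is over the same 14 arrays.

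C-type lectins are also made by other cells, so marker levels of those cells are given beside the results. Summed over 10 dendritic cell markers on the linear scale relative to the 75th percentile, the signal was 16.1 to 17.6 with PBS, 24.7 to 28.2 with IL-4c, 24.0 to 30.5 with thioglycollate and 45.5 to 52.7 with both (all 10 well above background on at least 1 array of every group). The same sum over 9 of 10 neutrophil markers was 51.0 to 65.7, 33.0 to 41.4, 37.9 to 48.1 and 47.2 to 54.5, with Mmp8 not well above background in the PBS and IL-4c groups. It weighs its brightest probe most, that of Csf3r, with means of 5.76, 5.08, 5.13 and 5.27. Gene by gene, 4 of the 9 rose and 2 fell with thioglycollate alone, where 44.4% of all genes were called. Between the groups given IL-4c, 6 were higher and 1 lower in elicited cells, where 70.0% of all genes were called. Over 10 B cell markers it was 11.4 to 19.2, 3.58 to 4.08, 6.62 to 7.42 and 3.48 to 3.74, so that it was lower in the 3 treated groups than with PBS. T and NK cell markers (11 of 12) gave 18.1 to 20.5, 15.4 to 24.2, 15.5 to 20.3 and 21.8 to 28.6. Cd3g was not well above background in the IL-4c group. Of these 11, 0 rose and 4 fell with IL-4c in resident cells (32.2% of all genes called). Eosinophil and mast cell markers (10) gave 7.45 to 8.73, 3.98 to 4.38, 3.02 to 6.08 and 2.33 to 2.85. Epx was not well above background in the PBS group. With thioglycollate alone 2 of these 10 rose and 6 fell, where 44.4% of all genes were called. The bright Tpsb2 went there from a mean of 1.78 to 0.65, while Siglecf went from -4.45 to -0.81.

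The dendritic cell sum was higher with IL-4c in both cell types, but it weighs its brightest probes most. In resident cells that was Cd24a, with means of 3.83 with PBS and 4.59 with IL-4c. In elicited cells these were Itgax (4.13 with thioglycollate, 5.02 with both) and Cd24a (2.80 and 3.64). Mgl2, Clec10a and Cd209a were also higher with IL-4c in both cell types, though the Cd209a call in resident cells did not last. With thioglycollate alone the sum was higher than with PBS, where Mgl2 and Cd209a fell and Clec10a was 0.56 higher, a difference that rested on few arrays. Within the list, Itgax, which encodes CD11c, read -2.73 to -2.15 with PBS, -4.22 to -3.34 with IL-4c, 3.88 to 4.27 with thioglycollate and 4.85 to 5.15 with both. Of its 10 genes, 1 rose and 3 fell with IL-4c in resident cells, and 3 rose and 1 fell in elicited cells. The one that rose in resident cells was Cd24a (0.76), and the defining dendritic cell genes Flt3 and Zbtb46 were not called with IL-4c in either. Clec9a is on this list and on that of the other C-type lectin receptors. The part of dendritic cells in the rises was not tested. Resident macrophage markers (11) summed to 915 to 1018 with PBS, 282 to 309 with IL-4c, 21.3 to 28.1 with thioglycollate and 12.8 to 15.4 with both. The sum was lowest in the elicited groups, where Clec4e was also low. In resident cells the sum was lower with IL-4c than with PBS, and the Clec4e arrays of these groups overlapped. With IL-4c in resident cells 8 of these 11 fell and 3 were not called, where 32.2% of all genes were called. The bright Cxcl13 went from a mean of 7.05 to -2.37 and Itga6 from 7.28 to 4.21. Gata6 read 3.13 and 3.18, and Garnl3 4.99 and 4.84, so the sum does not stand for all of the list. Monocyte-derived cell markers (9 of 10, among them Retnla, which interleukin 4 is known to induce) summed to 370 to 506, 236 to 369, 113 to 155 and 477 to 570. With thioglycollate alone 2 of these 9 rose and 4 fell, where 44.4% of all genes were called. The bright Fn1 went from a mean of 7.79 with PBS to 5.63 with thioglycollate and Retnla from 6.91 to 3.55, while Ccr2 went from 0.02 to 1.31. The sum over 6 of 7 markers of sorted macrophages was 719 to 831, 250 to 259, 228 to 313 and 147 to 163. It also weighs its brightest probes most. With IL-4c in resident cells 4 of these 6 fell and 2 were not called, where 32.2% of all genes were called. Lyz2 went there from a mean of 8.47 to 1.19 and Csf1r from 7.74 to 6.61. Itgam went from 5.96 to 5.79 and Adgre1 from 6.55 to 6.27. The part of a change in cell makeup in the levels of Mrc1, Clec4e and Clec4d was not tested.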

How the data were processed

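RNA of 14 sorted samples was hybridised to 1-colour Agilent arrays of 62976 spots. Per the file headers, the deposited scanner files hold intensity values made with Agilent Feature Extraction 11.0.1.1 (the submitters' processing notes give 11.5 and name limma). The authors also deposited a table of log2 values with a median of 9.2341 on every array. Its values correlated with the log2 median signal at r of 0.989 to 0.995, so its scale and direction are known. Its normalization and a genome build are not given in the sources used here.

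From the processed signal, which the scanner software had background-corrected, log2 values were taken, the 75th percentile of each array was subtracted, control spots and outlier flags were left out, and spots of a probe were averaged. Of 55681 probes, 27235 were named through their accession and RefSeq (GRCm38.p6), none with several symbols, and 28446 stayed unnamed. Each gene is given by its brightest probe, if 3 or more arrays had it well above background, which left 20342 genes and all 9 members with a probe. One limma model (limma 3.58.1, R 4.3.3) with a mean per group was fitted to all 14 arrays. P-values were two-sided and adjusted by Benjamini-Hochberg over all genes, with a threshold of 0.05, and the scripts were tested on simulated data. Genes named are all members, the 3 largest called rises and falls of each other receptor or signalling list, and the 3 genes most like each member, except that some genes of these lists are counted but not reported here by name. Members and lists were chosen with earlier results of these data known. The replicate numbers of the labels did not pair the samples. Alternatives were quantile normalization, normexp background correction, the authors' table, no dim-probe filter, the mean of a gene's probes, array weights, slide or replicate number as a block, fits of the compared arrays alone, and leaving out each array. The normexp alternative used the median signal, in place of the mean signal first planned. A comparison of protein motifs that had been planned was not run. Within-slide fits and the second Cd209a probe were added after seeing the data. The number of arrays limits the precision.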

Additional observations from a re-analysis of the deposited data

Results flagged for a closer look

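For 4 of the 9 measured C-type lectin genes the response to IL-4c differed between elicited and resident cells by the limma interaction test. Mrc1 responded more positively in elicited cells by 2.50 (limma adjusted p = 1.2e-05), falling with IL-4c on all 4 resident arrays relative to the lowest PBS array and rising on all 4 elicited arrays relative to the highest Thio array. Mgl2 responded more positively by 0.99 (limma adjusted p = 0.0023), and by 0.50 in the authors' deposited table (limma adjusted p = 0.031). Clec4a1 responded less by -0.96 (limma adjusted p = 0.0023) and Clec4a3 by -1.01 (limma adjusted p = 0.0032). With slide as a block, which here gives the same differences as leaving out Thio 1, the 4 values were 2.59, 0.91, -0.95 and -0.92. Among 18 groups of 4 arrays, no single array lay far enough from the others to pass Dixon's 95% limit, Thio+IL-4c 4 included. With 4 arrays that limit asks for a gap above 0.829 of the range, so it misses smaller departures. The PBS and Thio groups of 3 arrays, Thio 1 among them, were not put to it.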

How the results depend on the processing

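The rises of Clec10a, Mgl2 and Clec4a3, the fall of Clec4d with IL-4c in both cell types and the Mrc1, Cd209a and Clec4e differences with thioglycollate kept their direction and call under every alternative run. The value of Clec4e with IL-4c in resident cells turned to 0.030 with normexp, to 0.32 in the authors' deposited table and ran from -0.072 to 0.068 with 1 array left out, above 0 without PBS 2, IL-4c 1 or IL-4c 2. Between the groups given IL-4c, the authors' deposited table gave -0.22 for Clec10a and -0.0027 for Mgl2, and slide as a block gave 0.029 for Clec4n and -0.21 for Klrb1b. The Clec4n interaction turned to 0.013 with quantile normalization, 0.28 with slide as a block, 0.25 with array weights and ran from -0.41 to 0.28 with 1 array left out, above 0 without Thio+IL-4c 3 or Thio 1. For thioglycollate alone, 9041 genes were called, against 6013 with slide as a block, 15067 with array weights, 3904 in a fit of the compared arrays (4 members called) and 6227 to 13876 with 1 array left out, the highest without Thio 1. Between the groups given IL-4c, 14245 genes and 8 members were called, against 5437 and 1 with slide as a block. Members called with 1 array left out numbered 6 to 8, 5 to 8, 6 to 7, 7 to 8 and 4 to 5 in the comparisons as ordered above, the interaction last. The cause of these changes was not tested. The array weights gave Thio 1 a weight of 0.056, against 0.614 to 3.76 for the other arrays. That setting therefore nearly leaves Thio 1 out and is not a separate check from leaving it out.

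Deviations of same-numbered arrays correlated at -0.446 to 0.368 (19 pairs, median -0.005) and those of other numbers at -0.416 to 0.429 (54 pairs). With the replicate block, 5780, 7737, 6969, 13711 and 5833 genes were called, against 6540, 9041, 8001, 14245 and 6620 without it, and Clec4a3 with thioglycollate (0.50) missed the threshold (limma adjusted p = 0.054). Of the interaction calls, 39.2% were positive, against 51.3% with normexp, which moved the median of all genes from -0.05 to 0.11; the authors' deposited table moved it to -0.20 there and from -0.21 to -0.43 between the groups given IL-4c. Normexp moved it from -0.01 to -0.17 for IL-4c in resident cells. All members were well above background on every array, so dim signal does not limit them, but 3 or 4 arrays a group, 1 Thio array that stands apart and groups that follow the slides do.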
